A study of Macaca fascicularis with 4 samples.

Results

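The ventral neural tube progenitors of the cynomolgus monkey (Macaca fascicularis) embryo at embryonic day 24 (E24, Carnegie stage 11) were taken as the cell barcodes of 1 library that carried at least 1 unique molecular identifier (UMI, a counted transcript molecule) of SOX2, at least 1 of OLIG2 or NKX6-1, and none of T or SOX10. The rule found 666 barcodes, 6.26% of the 10639 in the E24 library (exact binomial 95% interval 5.81% to 6.74%), against 27626 barcodes in the whole series. They are called ventral barcodes here. SOX2 marks neural progenitors, OLIG2 the progenitors of motor neurons and NKX6-1 the ventral progenitor domains. T marks notochord and caudal progenitors and SOX10 the neural crest, so their UMIs served to keep such cells out.

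In the vertebrate neural tube, Sonic hedgehog (SHH) from the notochord and then from the floor plate at the ventral midline sets up progenitor domains by distance. FOXA2 marks the floor plate, NKX2-2 the p3 domain beside it, OLIG2 the motor neuron progenitor domain (pMN) above that, and PAX6 and IRX3 are stronger further from the midline. Dorsally, WNT and BMP signals from the roof plate act on progenitors that carry PAX3 and PAX7. These roles come mainly from mouse and chick embryos.

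Dissociated cells were profiled in droplets by RNA sequencing from the 3′ end of transcripts, and each of the 4 stages has a single library without a replicate. The E24 tissue was the embryo after trimming of yolk sac and amnion and removal of the heart, of the tissue anterior to it and of the posterior growth zone; no genotype or treatment is given in the labels. Its label names 2 embryos, which the barcodes do not separate, so the library is 1 sample. The later libraries came from the urogenital ridge at E28 (stage 13) and E31 (stage 14) and mainly from the gonadal ridge at E37 (stage 18).

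The ventral barcodes were set against 221 dorsal barcodes, which carried SOX2 with PAX3 (151 barcodes) or PAX7 (85 barcodes), and against all other 9973 E24 barcodes, a set that contains the dorsal ones. Another 9 barcodes carried PAX3 or PAX7 and also met the ventral rule, and they stayed with the ventral ones. Of the dorsal barcodes, 8 carried T, 4 carried SOX10 and 1 carried OLIG2 or NKX6-1. The median depth was 9139 UMIs in ventral, 11698 in dorsal and 10059 in all other barcodes. Summed over barcodes this made 6843838, 2796640 and 108488825 UMIs in that order. Levels are given as UMIs of a gene per 1000000 UMIs of the set (CPM), with exact Poisson or conditional binomial 95% intervals. With 1 library these intervals cover counting error only and no test between conditions was possible, so higher and lower describe this library. A gene was measured in a comparison at 50 or more UMIs over both sets and was called higher or lower where the ratio reached 2-fold; a gene that reaches that minimum through 1 set alone differs by construction.

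In the E24 library 2582 barcodes had SOX2, 411 had OLIG2 and 668 had NKX6-1, with 773 carrying OLIG2 or NKX6-1. Among those 773 barcodes, 85 lacked SOX2, 21 were left out for T and 1 for SOX10. The ventral barcodes held OLIG2 in 376 cases and NKX6-1 in 581, with both genes in 291, OLIG2 alone in 85 and NKX6-1 alone in 290. SOX2 stood at a median of 5 UMIs and at most 23, and 38 ventral barcodes had a single SOX2 UMI. Just inside the rule lay 209 barcodes with 1 UMI of OLIG2 and NKX6-1 together, against 457 with 2 or more, and just outside lay 1514 SOX2 barcodes with no UMI of OLIG2, NKX6-1, PAX3, PAX7, T or SOX10. NKX2-8 stood at 60.6 CPM in the barcodes with 1 UMI, 155 CPM in those with 2 or more and 19.0 CPM just outside. NKX6-2 stood at 41.7 CPM with 1 UMI, 59.0 CPM with 2 or more and 7.64 CPM just outside, and PTCH1 at 106, 174 and 61.9 CPM. The barcodes with 1 UMI thus lay between the other sets for these genes. FOXA2 was highest in the barcodes with 1 UMI, at 68.4 CPM, against 31.2 CPM in those with 2 or more and 17.3 CPM just outside. Of the 457 barcodes with 2 or more, 344 carried OLIG2 and 113 NKX6-1 alone, so most barcodes with 1 UMI carried NKX6-1 alone. The part of this make-up in the FOXA2 values was not tested.

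The label was checked against neural tube markers that the rule did not use (SOX3, PAX6, SOX21, NKAIN4, HES5, FABP7, RFX4, CDH2 and LIN28A). At least 3 of them were found in 70.6% of ventral, 52.9% of dorsal and 14.8% of all other barcodes, or in 26.1%, 11.3% and 3.46% after thinning every barcode to 3500 UMIs so that depth was equal. Their summed level was 732 CPM in ventral, 601 CPM in dorsal and 397 CPM in all other barcodes. SOX3 and HES5 were at or under 3 UMIs in the ventral barcodes. Markers of other tissues were not all low. The sum over 14 markers of splanchnic and limb mesenchyme was 146 CPM in ventral, 86.9 CPM in dorsal and 975 CPM in all other barcodes. Over 12 somite markers the sums were 43.1 CPM in ventral, 67.2 CPM in dorsal and 206 CPM in all other barcodes, over 10 endothelial markers 12, 26.5 and 87.3 CPM, and over 15 gut endoderm markers 166, 255 and 529 CPM. MYF5, MYOD1, TBX4, CDH1, HNF4A, PDX1, DLX3, NOTO and WNT8A were at 0 UMIs in the ventral barcodes. Surface ectoderm markers summed to 425 CPM in ventral, 453 CPM in dorsal and 1755 CPM in all other barcodes, and 3 or more of them were found in 15.2% of ventral, 21.3% of dorsal and 52.4% of all other barcodes. Neural crest markers summed to 173 CPM in ventral, 247 CPM in dorsal and 176 CPM in all other barcodes. The part of other tissues in the results was not tested beyond the values given without barcodes of other tissues. Those left out had 3 or more markers of the somite, the mesenchyme, the gut endoderm or the surface ectoderm list. Neural crest, endothelial and notochord markers were not used to leave barcodes out. The notochord markers other than T, with FOXA2 and SHH among them, summed to 59.3 CPM in ventral, 31.1 CPM in dorsal and 32.9 CPM in all other barcodes.

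Globin transcripts were concentrated in 96 barcodes with erythroid markers, which held 517257 UMIs of HBZ and HBE1, and the median ventral, dorsal and other barcode held 1 UMI. HBZ, an embryonic globin of red cells, had a UMI in 44.0% of ventral, 50.7% of dorsal and 43.1% of all other barcodes. The ventral barcodes held 4872 UMIs of HBZ and HBE1, of which 3789 were in 1 barcode with OLIG2 and without NKX6-1, leaving 1083 in the rest. Erythroid markers summed to 738 CPM in ventral, 149 CPM in dorsal and 5012 CPM in all other barcodes. Globin values of the ventral set are therefore mostly values of 1 barcode.

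The p3 and pMN factors measured against dorsal barcodes were far higher in the ventral barcodes. All 3 measured genes of that list were higher than in dorsal barcodes, beside 2.56% of all 9570 genes measured. With 2, 0 and 11 dorsal UMIs for NKX6-2, NKX2-2 and NKX2-8, each was measured through the ventral set. The count of 3 thus follows largely from the minimum of UMIs and is description only. NKX6-2, a repressor that acts beside NKX6-1, stood at 53.8 CPM in ventral and 0.715 CPM in dorsal barcodes, a 75.2-fold ratio (20.7 to 623) that rests on 2 dorsal UMIs. NKX2-2, the p3 factor, had 177 UMIs in ventral and 0 in dorsal barcodes, so it was at least 24.1-fold higher against a limit of 3 counts over the dorsal set. NKX2-8, a homeobox factor of the same family, stood at 127 CPM in ventral and 3.93 CPM in dorsal barcodes, 32.2-fold higher (17.9 to 64.7). The 3 genes thus came close to absence in the dorsal set, where 1 barcode held 45.5% of the 11 NKX2-8 UMIs. Against all other E24 barcodes the ratios were 34.7-fold for NKX6-2 (28.9 to 41.9), 31.5-fold for NKX2-2 (24.3 to 41.1) and 27.3-fold for NKX2-8 (24.4 to 30.5). SIM1, a factor of p3-derived neurons and the fourth gene of the list measured there, was lower, at 0.292 CPM with 2 UMIs in ventral and 1.55 CPM in all other barcodes (ratio 5.30 lower, interval 1.44 to 44.1).

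The share of barcodes with these transcripts was well short of all. NKX6-2 was found in 38.1% of ventral, 0.905% of dorsal and 1.29% of all other barcodes. NKX2-8 was found in 32% of ventral, 1.81% of dorsal and 2.33% of all other barcodes. NKX2-2 was found in 16.1% of ventral barcodes (13.4% to 19.1%), in none of 221 dorsal barcodes, which allows a share of up to 1.36%, and in 0.752% of all others. After thinning to 3500 UMIs the ventral shares were 18.3% for NKX6-2, 20.7% for NKX2-8 and 7.36% for NKX2-2. As a check on free RNA, 96 barcodes with erythroid markers were used, a set that leaves out ventral and dorsal barcodes. An erythroid barcode that met the ventral rule could thus not count here, which bears most on OLIG2 and NKX6-1. At a median depth of 23930.5 UMIs, the 96 barcodes held no UMI of NKX2-2, NKX2-8, NKX6-2, FOXA2, OLIG2 or NKX6-1, which allows up to 3.12% for each. The ventral shares of NKX2-2, NKX2-8, NKX6-2 and FOXA2 exceeded that limit with and without thinning.

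**Figure D1:**
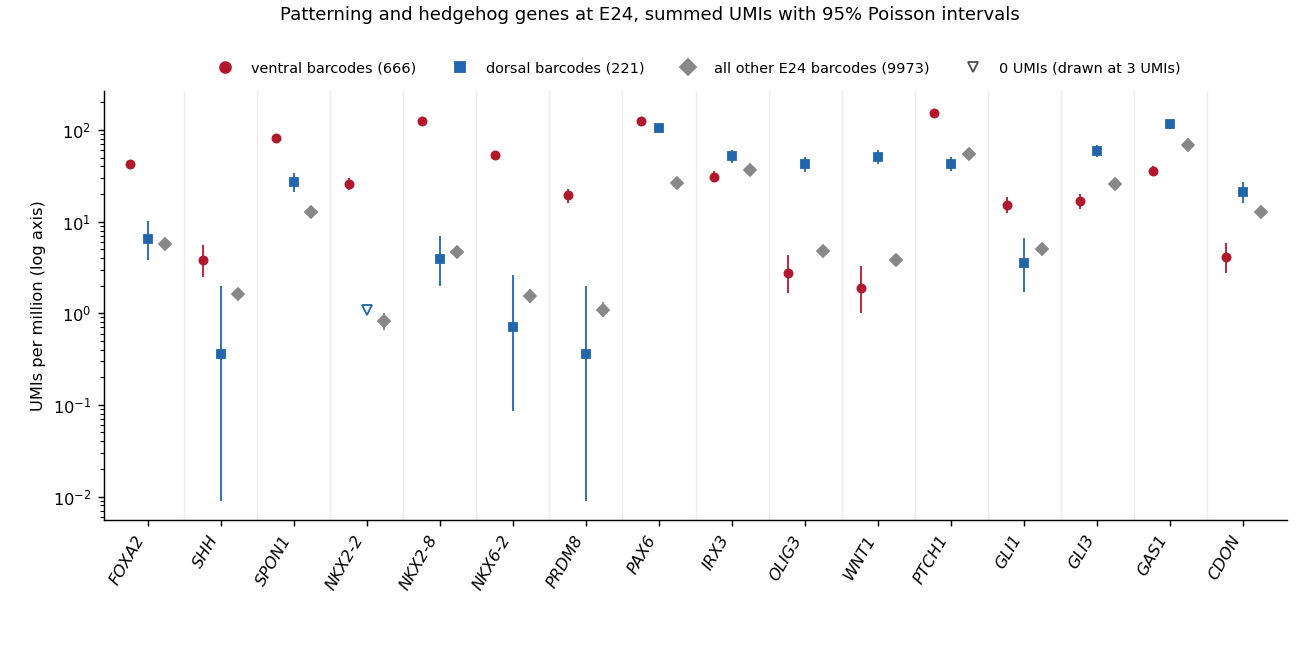
Summed UMIs as CPM (log axis) of patterning and hedgehog genes in ventral barcodes (red circles), dorsal barcodes (blue squares) and all other E24 barcodes (grey diamonds), with 95% Poisson intervals that cover counting error within 1 library; open triangles stand at 3 UMIs where a set had 0. NKX2-2, NKX2-8 and NKX6-2 lie far above the dorsal set, PAX6 lies close to it at 127 against 104 CPM, and WNT1 and OLIG3 lie far below it.

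Floor plate genes were present in a minority. FOXA2, the floor plate factor, stood at 42.4 CPM in ventral, 6.44 CPM in dorsal and 5.66 CPM in all other barcodes, and was found in 17.6% of ventral barcodes, while 44.4% of its dorsal UMIs were in 1 barcode. SPON1, which encodes the secreted floor plate protein F-spondin, stood at 82.1 CPM in ventral, 26.8 CPM in dorsal and 12.6 CPM in all other barcodes. FOXA2 and SPON1 were the 2 of 4 measured floor plate genes that were higher than in dorsal barcodes, beside 2.56% of all measured genes. SHH itself was sparse, with 26 UMIs in ventral and 1 in dorsal barcodes (3.80 and 0.358 CPM, ratio 10.6, interval 1.75 to 436), below the minimum for a count. NTN1, the axon guidance ligand netrin, had 0 UMIs in both sets.

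Factors of the intermediate domains did not follow the same pattern. PAX6, a factor of most progenitor domains outside the floor plate and p3, stood at 127 CPM in ventral, 104 CPM in dorsal and 26.7 CPM in all other barcodes. It was found in 44.4% of ventral and 43.4% of dorsal barcodes, against 4.17% of the erythroid ones. IRX3, which marks progenitors dorsal to pMN, stood at 30.8 CPM in ventral and 51.5 CPM in dorsal barcodes, a difference under 2-fold. Only PRDM8, a zinc finger factor of spinal progenitors, was higher among the 4 measured intermediate genes, at 19.3 CPM with 132 UMIs in ventral against 0.358 CPM with 1 UMI in dorsal barcodes (ratio 53.9, interval 9.51 to 2146).

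Dorsal patterning genes lay in the opposite direction. Of 12 measured dorsal progenitor genes outside the rule, 9 were lower in ventral than in dorsal barcodes, beside 2.0% of all measured genes lower. The median log2 ratio of the list was -2.85, against -0.00 over all measured genes. The roof plate WNT ligands WNT1 and WNT3A stood at 1.90 and 0.146 CPM in ventral barcodes, against 50.8 and 18.6 CPM in dorsal barcodes. The WNT3A value rests on 1 ventral UMI (ratio 127 lower, interval 21.9 to 5122). That gene was thus measured through the dorsal set and was bound to count as lower. OLIG3, a factor of dorsal interneuron progenitors, stood at 2.78 and 42.2 CPM in ventral and dorsal barcodes, and ZIC2 and ZIC5, zinc finger factors of the dorsal tube, at 16.4 against 137 CPM and 9.06 against 96.9 CPM. MSX1 and MSX2, targets of BMP signalling, stood at 8.62 CPM in ventral and 60.8 CPM in dorsal barcodes and at 3.80 against 23.2 CPM. SNAI2, a neural crest factor, stood at 11.8 CPM in ventral and 88.0 CPM in dorsal barcodes, and the sum of 9 neural crest markers at 173 and 247 CPM; the part of neural crest cells in the dorsal values was not tested.

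Further genes chosen by rank filled out the contrast. GDF10, a BMP family ligand, stood at 4.09 CPM in ventral and 82.2 CPM in dorsal barcodes (20.1-fold lower, 13.5 to 30.9). NRG1, the ligand neuregulin, stood at 3.95 CPM in ventral and 69.0 CPM in dorsal barcodes, GREM1, a secreted BMP antagonist, at 2.78 and 36.5 CPM, and ZIC4 at 1.17 and 21.1 CPM. KISS1, which encodes the neuropeptide kisspeptin, stood at 5.41 CPM in ventral and 86.2 CPM in dorsal barcodes. These lower genes were each spread over many dorsal barcodes, with at most 12.7% of the dorsal UMIs in 1 barcode. HES7, an oscillating Notch target of the presomitic mesoderm, stood at 1.75 and 22.5 CPM with 22.2% of its dorsal UMIs in 1 barcode. RBP4 and FGG, plasma proteins made in yolk sac and liver, met the same rank rule, but 94.9% and 98.5% of their dorsal UMIs were in 1 barcode. On the other side, FABP7, a fatty acid binding protein of radial glia and neural progenitors, stood at 135 CPM in ventral and 12.2 CPM in dorsal barcodes (11.1-fold, 7.86 to 16.1). The neuropeptide gene HCRT stood at 57.4 and 6.44 CPM, the chemokine gene CCL15 at 18.8 and 0.358 CPM on 1 dorsal UMI (ratio 52.7, interval 9.29 to 2098), and TPPP3, a tubulin-binding protein, at 35.7 and 2.15 CPM.

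Detection after thinning to 3500 UMIs was ranked separately, by the difference in the share of barcodes. WLS, which encodes the carrier that WNT ligands need for secretion, had a UMI in 10.4% of ventral and 48.0% of dorsal barcodes. TTYH1, a membrane protein of neural progenitors, was found in 58.3% of ventral and 22.6% of dorsal barcodes, and SFRP2, a secreted WNT antagonist, in 61.0% and 27.6%. The gap junction gene GJA1 was found in 14% of ventral and 47.5% of dorsal barcodes, PTN, a growth factor of the nervous system, in 39.2% and 67.0%, and ID3, a target of BMP signalling, in 50.2% and 75.6%. CAMK2N1, an inhibitor of a calcium-dependent kinase, was found in 39.5% of ventral and 9.95% of dorsal barcodes. ZIC2 was found in 4.65% of ventral and 35.3% of dorsal barcodes, ZIC5 in 3.15% and 28.5%, and TMEM88, a membrane inhibitor of WNT signalling, in 18% and 42.5%.

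Within the hedgehog pathway, transcriptional targets and surface coreceptors lay in opposite directions. Against dorsal barcodes, 3 of 13 measured genes were higher and 5 lower, beside 2.56% and 2.0% of all measured genes. The median log2 ratio was -0.27. PTCH1, the SHH receptor and itself a target of the pathway, stood at 154 CPM in ventral, 42.9 CPM in dorsal and 54.6 CPM in all other barcodes. GLI1, the target that reports pathway activity, stood at 15.2 CPM in ventral, 3.58 CPM in dorsal and 5.04 CPM in all other barcodes. Both were among the higher genes. The lower ones were the coreceptors CDON at 4.09 CPM in ventral and 21.1 CPM in dorsal barcodes, GAS1 at 35.8 and 115 CPM and BOC at 10.4 and 23.6 CPM, the repressor GLI3 at 16.8 and 59.0 CPM, and SCUBE2, which aids release of the ligand, at 10.7 and 21.8 CPM. SMO, the signal transducer, stood at 29.1 CPM in ventral and 35.0 CPM in dorsal barcodes, and GLI2, the main activator, at 20.9 and 17.5 CPM, both under 2-fold. Against all other E24 barcodes 5 of 16 measured genes were higher, among them SHH, PTCH1, GLI1 and SCUBE2, and CDON was lower, beside 3.93% and 14.2% of 14896 genes higher and lower. Without the barcodes that carry markers of other tissues SCUBE2 had a log2 ratio of -0.31, against 1.20 with them. PTCH1 was found in 65.0% of ventral, 36.2% of dorsal and 33.6% of all other barcodes, and in 13.5% of the erythroid ones; after thinning the shares were 36.2%, 13.6%, 16.0% and 3.12%.

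The WNT and BMP lists held members in both directions. Of 18 measured WNT genes, 8 were lower in ventral than in dorsal barcodes and 2 were higher, beside 2.0% and 2.56% of all measured genes. Their median log2 ratio was -0.88. Besides the ligands WNT1, WNT3A and WNT5B, the lower genes were RSPO3, the receptor gene FZD10 at 19.9 CPM in ventral and 61.5 CPM in dorsal barcodes, and the pathway targets AXIN2 at 8.47 and 29.7 CPM, NKD1 at 6.43 and 16.4 CPM and SP5 at 5.11 and 31.8 CPM. The higher ones were SFRP2 at 448 CPM in ventral and 103 CPM in dorsal barcodes and the WNT effector TCF7L2 at 55.5 and 26.5 CPM. Of 14 measured BMP and TGF-beta genes, 3 were higher and 3 lower. ID1, a target of BMP signalling, stood at 592 CPM in ventral and 189 CPM in dorsal barcodes and TGFB2, a ligand, at 49.1 and 11.8 CPM, while BMPR1B, a receptor, stood at 11.3 and 4.29 CPM. The lower genes were the antagonists NOG and GREM1 and ID4, at 40.5 CPM in ventral and 104 CPM in dorsal barcodes. Of 14 FGF genes, FGF9 at 25.4 CPM in ventral and 5.36 CPM in dorsal barcodes and FGF18 at 12.1 and 3.93 CPM were higher, and FGF17, FGFR4, SPRY1 and IL17RD were lower.

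Of 10 measured retinoic acid genes, CYP26A1, RARG and CRABP2 were lower in ventral than in dorsal barcodes. Of all measured genes 2.0% were lower and 2.56% higher. CRABP2, which carries retinoic acid, stood at 472 CPM in ventral and 1167 CPM in dorsal barcodes. Among 25 guidance and adhesion genes, SPON1, SLIT3, ROBO2, EPHB1 and PCDH18 were higher than in dorsal barcodes and SEMA3A, SEMA3C and CDH6 were lower. ROBO2, a receptor for SLIT ligands, stood at 29.4 and 5.36 CPM and the cadherin gene CDH6 at 43.4 and 148 CPM in ventral and dorsal barcodes.

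**Figure D2:**
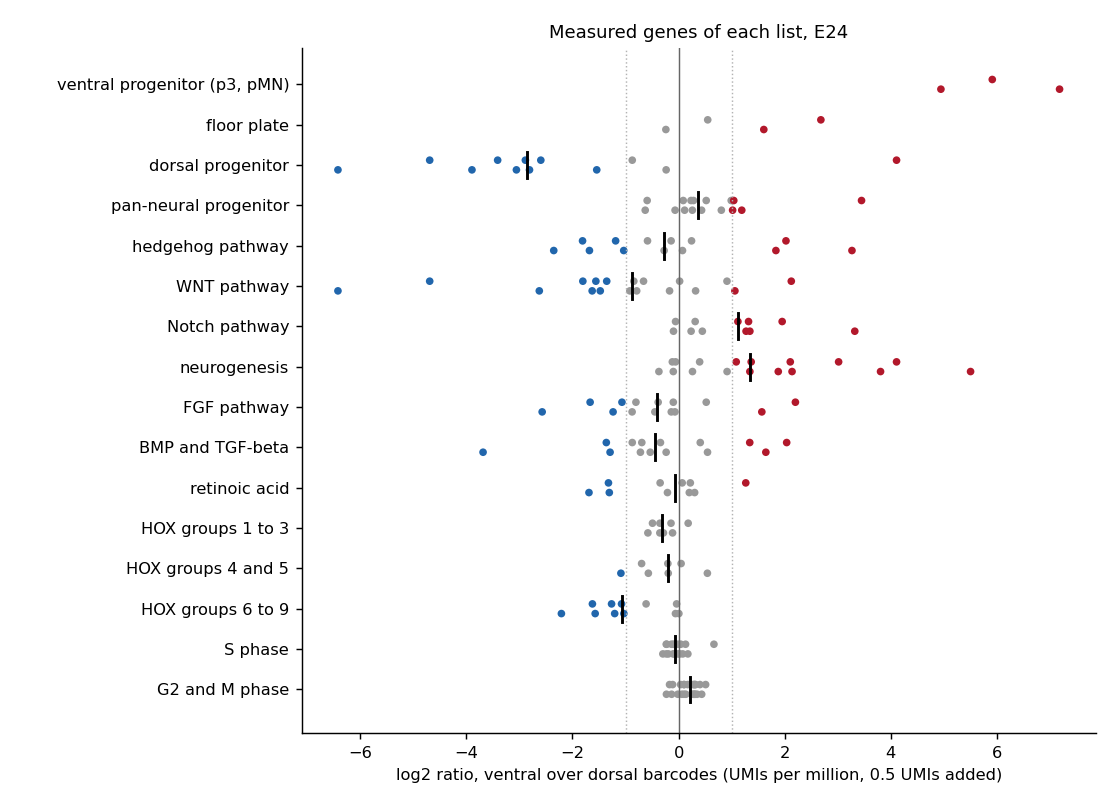
Log2 ratio of ventral over dorsal barcodes for every measured gene of 16 lists, with 0.5 UMIs added; red and blue points are higher or lower by 2-fold or more, grey points are not, and black bars are medians of lists with 5 or more genes. The dorsal list has its median at -2.85 and the neurogenesis list at 1.34, while the S phase and G2/M genes all lie within the 2-fold lines.

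Genes of neuronal differentiation were higher in the ventral barcodes. Of 17 measured, 10 were higher than in dorsal barcodes and none lower, beside 2.56% and 2.0% of all measured genes. The median log2 ratio was 1.34. ELAVL4, an RNA-binding protein of early neurons, stood at 72.5 CPM in ventral, 5.01 CPM in dorsal and 5.31 CPM in all other barcodes (14.5-fold over dorsal, 8.55 to 26.7). TUBB3, the neuronal tubulin, stood at 98.3 CPM in ventral, 22.2 CPM in dorsal and 11.3 CPM in all other barcodes. NEUROD4 had 55 UMIs in ventral and 0 in dorsal barcodes, at least 7.49-fold higher. NEUROG1 stood at 13 and 2.86 CPM, and all 8 of its dorsal UMIs were in 1 barcode. Its log2 ratio was 2.11, but 0.20 where the rules were applied after thinning, which left 64 dorsal barcodes. NEUROG2, a proneural factor of motor neuron progenitors, stood at 34.6 CPM in ventral and 18.2 CPM in dorsal barcodes and did not reach 2-fold. Against all other E24 barcodes 17 of 21 measured genes were higher and 1, DCX, was lower, beside 3.93% and 14.2% of all genes. The median log2 ratio was 1.82, against -0.04 over all measured genes.

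Notch pathway genes accompanied them. Of 11 measured, 6 were higher than in dorsal barcodes and none lower, beside 2.56% and 2.0% of all measured genes. The ligand DLL1 stood at 71.2 CPM in ventral and 27.9 CPM in dorsal barcodes, where 1 barcode held 26.9% of its UMIs. Its log2 ratio of 1.34 was 0.21 where the rules were applied after thinning, which left 64 dorsal barcodes. LFNG, which modifies the receptor, stood at 38.7 CPM in ventral and 15.4 CPM in dorsal barcodes, and the targets HES4, HEY1, HEY2 and HEYL stood at 52.3 against 24, 23.7 against 9.65, 19.6 against 1.79 and 11.7 against 2.86 CPM. HES1, another target, stood at 132 CPM in ventral and 141 CPM in dorsal barcodes. Pan-neural progenitor genes differed less: 4 of 16 were higher (SOX21, FABP7, RFX4 and CKB), none lower, and the median log2 ratio was 0.36. SOX21 had a log2 ratio of 1.04, but 0.11 where the rules were applied after thinning. RFX4, a factor of the neural tube, stood at 91.8 CPM in ventral, 40.0 CPM in dorsal and 7.83 CPM in all other barcodes.

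Genes of mature ventral neurons were nearly absent. The motor neuron factors MNX1, ISL2 and LHX3 had 2, 1 and 2 UMIs in all 666 ventral barcodes, and CHAT, the enzyme that makes acetylcholine, had 0. ISL1, a factor of motor neurons and other types, stood at 7.01 CPM in ventral, 1.07 CPM in dorsal and 21.1 CPM in all other barcodes, with 3 dorsal UMIs. Against all other barcodes 10 of 14 measured genes of the ventral neuron list were lower, beside 14.2% of all measured genes.

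Cell cycle genes did not separate the ventral and dorsal sets. None of 20 S phase and none of 24 G2/M genes reached 2-fold, with median log2 ratios of -0.06 and 0.21. Among 10 measured stress and dissociation genes, EGR1, an immediate early gene, was higher at 13.2 CPM in ventral and 3.22 CPM in dorsal barcodes, and 9 did not reach 2-fold.

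Against all other E24 barcodes, most of which are not neural, several further genes were far higher. GLRA1, a glycine receptor subunit, stood at 38.1 CPM in ventral and 1.84 CPM in all other barcodes (20.7-fold, 17.1 to 25.0). CAMK2N1 stood at 162 CPM in ventral and 12.8 CPM in all other barcodes and KLHDC8A at 50.3 and 3.64 CPM. FABP7, PRDM8, NEUROD4 and ELAVL4 were also among the 12 highest by rank, between 13.7-fold and 29.1-fold. The 12 lowest were SPP1 and genes of plasma proteins and lipoproteins made in yolk sac and liver, such as AFP at 4.82 and 116 CPM, TTR at 5.41 and 123 CPM and APOA1 at 9.06 and 152 CPM in ventral and all other barcodes. Without the barcodes that carry markers of other tissues, gut endoderm among them, the log2 ratios were -0.15 for AFP and -0.31 for APOA1, against -4.56 and -4.06 with them. AFP and APOA1 are themselves on the gut endoderm list used to leave barcodes out. The filter thus acts on these genes, and the change in their ratios follows in part by construction. All 10 measured somite, 14 mesenchyme, 7 intermediate mesoderm and 10 endothelial markers were lower, as was each of 8 erythroid markers. Of all measured genes 14.2% were lower. Of 12 gut endoderm markers 7 were lower and FOXA2, which the floor plate shares with endoderm, was higher.

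The ventral barcodes were not uniform. They were split by OLIG2, 376 with and 290 without, those without all carrying NKX6-1. With 2 or more UMIs of OLIG2 and NKX6-1 together, 344 and 113 were left, so the set without OLIG2 rests more on single UMIs. Of 8643 measured genes, 31 (0.359%) were higher and 109 (1.26%) lower in the OLIG2 barcodes. ID1 stood at 820 CPM in OLIG2 barcodes and 305 CPM in NKX6-1-only barcodes (2.69-fold, 2.50 to 2.89). TPD52L1 stood at 167 CPM in OLIG2 and 76.2 CPM in NKX6-1-only barcodes, ROBO2 at 39.1 and 17.2 CPM, and OPRK1, an opioid receptor gene, at 25.2 and 9.24 CPM. CCDC85C, PHACTR3 and FAM65B were between 2.44-fold and 2.68-fold higher. COL1A1, IGFBP3 and LUM, genes of connective tissue, also met the rank rule, with 17.9%, 45.0% and 35.6% of their UMIs from OLIG2 barcodes in 1 barcode. HBZ and HBE1 ranked highest only through the single globin-rich barcode, which held 87.1% and 83.9% of their UMIs.

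The genes lower in OLIG2 barcodes, and so higher in those with NKX6-1 alone, included the floor plate genes. FOXA2 stood at 13.4 CPM in OLIG2 barcodes and 78.8 CPM in NKX6-1-only barcodes (5.89-fold lower, 4.34 to 8.14). FOXA1, its close relative, stood at 3.41 CPM in OLIG2 and 13.9 CPM in NKX6-1-only barcodes and FOXJ1, a factor of motile cilia, at 15.7 and 41.2 CPM. Thus 3 of 4 measured floor plate genes were lower, beside 1.26% of all measured genes. PPP1R17 stood at 2.62 CPM in OLIG2 and 61.7 CPM in NKX6-1-only barcodes, LECT1 at 1.57 and 37.9 CPM, TPPP3 at 3.93 and 75.5 CPM, TFF3 at 1.84 and 29.4 CPM and HCRT at 16.5 and 109 CPM. EFEMP1, SEMA3E, CHL1, VTN and IGFBP6 were between 6.75-fold and 8.92-fold lower. NKX2-2 and NKX6-2, by contrast, stayed within 2-fold: NKX2-2 stood at 27.5 CPM in OLIG2 barcodes and 23.8 CPM in NKX6-1-only barcodes. NKX2-8 stood at 149 CPM in OLIG2 and 98.6 CPM in NKX6-1-only barcodes, PTCH1 at 174 and 128 CPM and PAX6 at 93.6 and 168 CPM, none of them at 2-fold. IRX3 stood at 18.6 CPM in OLIG2 and 46.2 CPM in NKX6-1-only barcodes and the caudal factor CDX4 at 8.39 and 47.5 CPM, and both were lower.

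**Figure D3:**
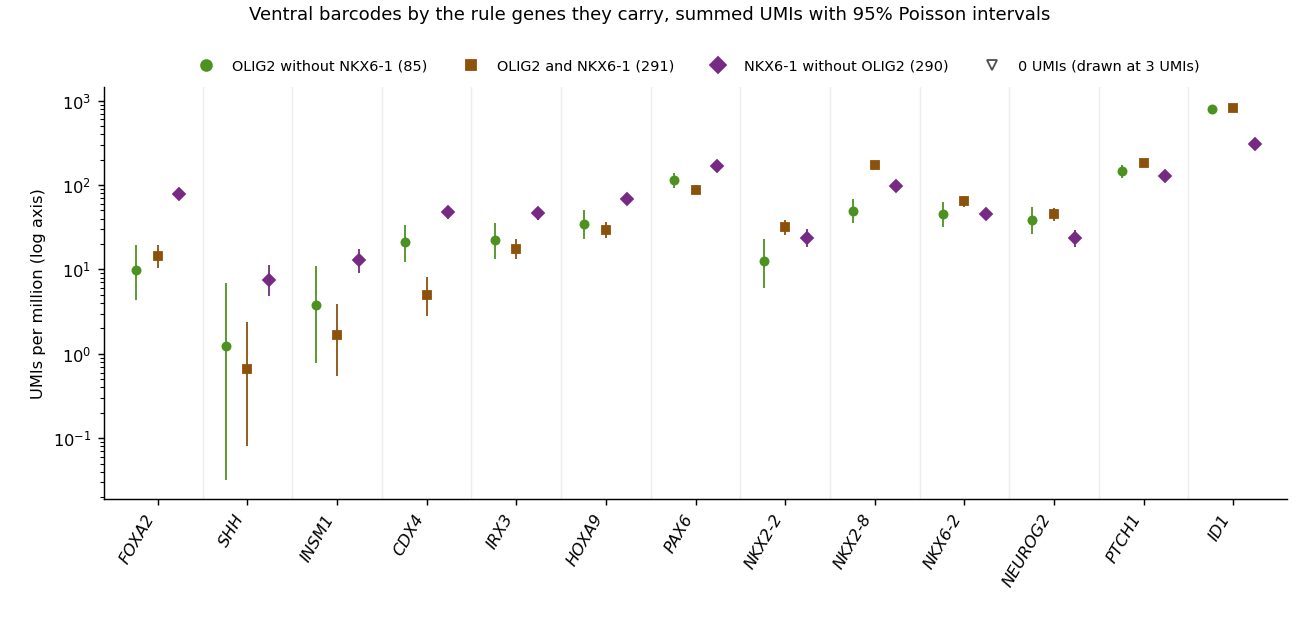
Summed UMIs as CPM (log axis) in ventral barcodes with OLIG2 alone (green circles), with OLIG2 and NKX6-1 (brown squares) and with NKX6-1 alone (purple diamonds), with 95% Poisson intervals that cover counting error only. FOXA2 and CDX4 are highest with NKX6-1 alone and ID1 is lowest there, while NKX2-2 differs by less than 2-fold between all OLIG2 barcodes and the rest.

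A split by FOXA2, chosen after values were seen, gave 117 ventral barcodes with it and 549 without, at median depths of 9895 and 9041 UMIs. NKX2-8 was found in 74.4% of FOXA2 barcodes and 23.0% of those without, and NKX2-2 in 41.9% and 10.6%. SHH was found in 11.1% of FOXA2 barcodes and 1.09% of those without. After thinning the shares were 56.4% of FOXA2 barcodes and 13.1% of those without for NKX2-8 and 20.5% and 4.55% for NKX2-2. The opposite held for OLIG2, found in 25.6% of FOXA2 barcodes and 63.0% of those without, for PAX6, in 5.98% and 52.6% (2.56% and 32.2% after thinning), for IRX3, in 8.55% and 23.3%, and for NEUROG2, in 5.98% and 29.0%. NKX6-1 was found in 97.4% of FOXA2 barcodes and 85.1% of those without and NKX6-2 in 40.2% and 37.7%. The rule ties OLIG2 and NKX6-1 to each other, since every ventral barcode without OLIG2 has NKX6-1. FOXA2 and PAX6 were found together in 7 of the 666 barcodes, FOXA2 in 117 and PAX6 in 296 in all, while 260 barcodes had neither.

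Several genes that ranked lowest in OLIG2 barcodes were higher in the FOXA2 barcodes. TPPP3 stood at 148 CPM in FOXA2 barcodes and 11 CPM in those without, LECT1 at 82.3 and 3.56 CPM, TFF3 at 64.3 and 3.03 CPM, HCRT at 208 and 24.4 CPM and PPP1R17 at 97.7 and 13.7 CPM. SLIT2, a guidance ligand of the ventral midline, stood at 62.7 and 10.7 CPM, and the floor plate factor FERD3L at 10.6 and 0.178 CPM. NEUROG1 stood at 2.44 CPM in FOXA2 barcodes and 15.3 CPM in those without. ID1 and SFRP2 were far lower with FOXA2, at 131 CPM in FOXA2 barcodes and 693 CPM in those without and at 125 against 519 CPM. PTCH1 stood at 237 CPM in FOXA2 barcodes and 135 CPM in those without.

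FOXA2 is shared with gut endoderm and notochord, so their markers were summed in the same barcodes. Neural tube markers stood at 802 CPM in FOXA2 barcodes and 716 CPM in those without, with at least 3 markers in 71.8% and 70.3%, and RFX4 alone at 207 and 66.6 CPM. The other 14 gut endoderm markers stood at 189 and 109 CPM, of which EPCAM, an epithelial adhesion gene, made 125 and 73.7 CPM, and CDH1, SOX17, HNF4A, NKX2-1 and PDX1 were at 0 UMIs in FOXA2 barcodes. At least 3 of these markers were found in 5.98% of FOXA2 barcodes and 2.73% of those without. Notochord markers other than FOXA2 and T stood at 20.4 and 16.2 CPM, with NOTO and CA3 at 0 in FOXA2 barcodes.

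**Figure D4:**
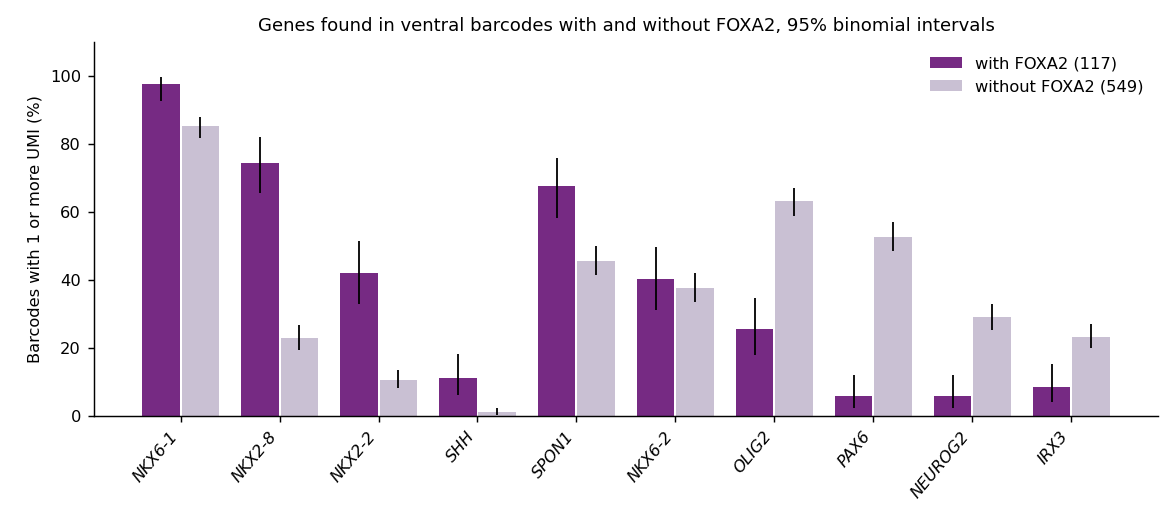
Share of ventral barcodes with at least 1 UMI of each gene, for barcodes with FOXA2 (dark bars, 117) and without (light bars, 549), with exact binomial 95% intervals. NKX2-8, NKX2-2 and SHH are found more often with FOXA2, and OLIG2, PAX6, NEUROG2 and IRX3 less often.

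PAX6 was found with NEUROG2 and IRX3 more than with the most ventral factors. Of the 296 ventral barcodes with PAX6, 34.1% had NEUROG2 and 33.8% IRX3, while 2.36% had FOXA2 and 5.41% NKX2-2. NKX2-2 and OLIG2 were not exclusive, since 57.0% of the 107 NKX2-2 barcodes had OLIG2, against 56.4% of those without NKX2-2. Barcodes with PAX6 were deeper than those without, with medians of 10025 and 8502 UMIs. After thinning, NEUROG2 was found in 11.8% of barcodes with PAX6 and 8.92% of those without, and IRX3 in 15.2% and 3.24%.

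A stage of differentiation could be described from 9 neuronal genes, among them NEUROG2, NEUROD4, INSM1, NHLH1 and ELAVL4, again chosen after values were seen. At least 3 of them were found in 53 ventral barcodes and none in 255, at median depths of 7804 and 8637 UMIs. DLL1 stood at 326 CPM in the neuronal barcodes and 38.6 CPM in those with none, TUBB3 at 563 and 61.6 CPM, HES6 at 275 and 51.5 CPM and STMN2, a microtubule regulator of neurons, at 96.8 and 8.80 CPM. GADD45G and BTG2, genes of cell cycle exit, stood at 188 CPM in neuronal barcodes and 7.54 CPM in those with none and at 87.0 and 15.9 CPM. The Notch target HES4 was lower, at 17.8 CPM in neuronal barcodes and 60.4 CPM in those with none, and HES1 stood at 92.9 and 149.6 CPM, under 2-fold. Summed S phase genes stood at 1941 CPM in neuronal barcodes and 2847 CPM in those with none, and summed G2/M genes at 6194 and 5282 CPM. OLIG2 stood at 273 CPM in neuronal barcodes and 133 CPM in those with none, and NKX6-1 at 170 and 165 CPM.

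HOX genes, whose higher paralogue groups mark more caudal positions, were of trunk groups in most ventral barcodes. After thinning to 3500 UMIs, the most caudal group with a UMI was 6 to 9 in 68.9% of ventral barcodes, 4 or 5 in 20.4%, 1 to 3 in 4.20% and 10 to 13 in 4.05%, with no HOX UMI in 2.40%. In dorsal barcodes the shares were 67.0%, 12.2%, 3.17%, 16.7% and 0.905% in the same order. Without thinning, groups 10 to 13 were reached in 7.36% of ventral and 25.3% of dorsal barcodes. Summed levels of groups 1 to 3 were 434 CPM in ventral and 533 CPM in dorsal barcodes, and of groups 4 and 5 they were 407 and 440 CPM. Groups 6 to 9 summed to 656 CPM in ventral and 1251 CPM in dorsal barcodes and groups 10 to 13 to 26.6 and 95.8 CPM. The gap between the sets was thus wider in the caudal groups. None of 8 genes of groups 1 to 3 and 7 of 11 measured genes of groups 6 to 9 were lower by 2-fold, beside 2.0% of all measured genes. HOXA9 stood at 47.5 CPM in ventral and 141 CPM in dorsal barcodes and HOXC6 at 83.3 and 170 CPM. The 7 genes and both measured genes of group 10 belong to the HOXA, HOXC and HOXD clusters. HOXB6, HOXB7, HOXB8 and HOXB9 did not reach 2-fold, with log2 ratios of -0.06, -0.04, 0.01 and -0.61. Markers of caudal and neuromesodermal progenitors were lower too, 7 of 8 measured, and their sum was 129 CPM in ventral, 439 CPM in dorsal and 273 CPM in all other barcodes; the ventral rule excludes T while the dorsal one does not, and without the 8 dorsal barcodes with T and the 4 with SOX10 the HOXA9 log2 ratio was -1.53, against -1.57 with them.

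**Figure D5:**
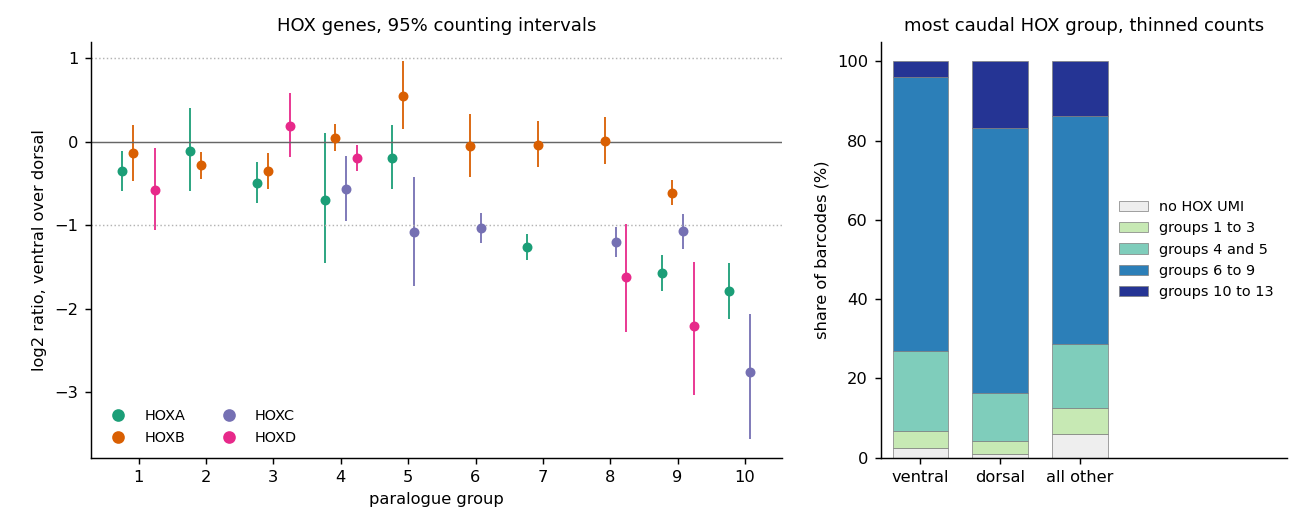
Left, log2 ratio of ventral over dorsal barcodes for each measured HOX gene by paralogue group, coloured by cluster, with 95% counting intervals and dotted lines at 2-fold; right, share of barcodes by the most caudal HOX group with a UMI, each barcode thinned to 3500 UMIs. The measured HOXA, HOXC and HOXD genes of groups 6 to 10 lie past the lower 2-fold line and those of HOXB do not, and 4.05% of ventral against 16.7% of dorsal barcodes reach groups 10 to 13.

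Position also ran through the ventral barcodes. The 486 with a UMI of HOX groups 6 to 13 after thinning and the 180 without, a split made after values were seen, had median depths of 9136 and 9172.5 UMIs. CDX4 stood at 34.4 CPM in the HOX 6 to 13 barcodes and 1.12 CPM in those without, on 2 UMIs in the second set (ratio 30.6, interval 8.34 to 255), and CDX2 at 64.8 and 10.1 CPM. FABP7 stood at 103 CPM in HOX 6 to 13 barcodes and 225 CPM in those without, and CRABP1, a retinoic acid carrier, at 54.1 and 153 CPM. NKX6-1 at 158 CPM in HOX 6 to 13 barcodes and 157 CPM in those without, FOXA2 at 42.7 and 41.6 CPM and SOX2 at 606 and 581 CPM were close.

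The same rule found 1 barcode of 5028 at E28, 1 of 6661 at E31 and 0 of 5298 at E37. The tissue taken and the stage changed together between libraries, so they cannot be told apart, and no comparison of levels with those barcodes was made.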

How the data were processed

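The authors deposited whole UMI counts for each gene in each barcode, not normalized, and Cell Ranger 2.1.0 is named in the submitters' processing notes. For genome build, annotation and the chemistry of each library (the labels' protocols name v2 and v3), the sources used here give nothing. Tissue was dissociated with trypsin and EDTA, per the labels' protocols. A row with a blank name held 0 UMIs, a share of 0%. Mitochondrial genes could not be found by name, and barcodes were not filtered on them.

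All barcodes of the 4 libraries (10639, 5028, 6661 and 5298) were kept. Between 71 and 111 barcode sequences of E24 also occur in each later library. Scrublet, run in scanpy 1.11.5, called 0 of 10639 E24 barcodes, so it had not worked, and leaving out 906 barcodes by Scrublet score (0.8% per 1000 barcodes) served as an alternative. UMIs were summed per set of barcodes. Log2 ratios had 0.5 UMIs added, and thinning to 3500 UMIs used seed 0. A share of 0 carries a limit of 3 counts. Erythroid barcodes had at least 4 of 5 markers and were in neither the ventral nor the dorsal set.

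Genes were ranked by the bound of the interval that lies nearest to a ratio of 1, and the 12 with the most distant bound per direction are named, given a symbol, 50 UMIs in the higher set and a ratio of 2-fold or more. Ribosomal genes and the 7 genes of the rule were left out. The 10 genes whose thinned share differs most between ventral and dorsal barcodes, and genes of 24 lists and 14 marker lists, may be named too. Some genes within the counts of lists and ranks are not reported here. The members and lists were chosen with earlier results of these data known. The listed names FGF15, HBA, HBG2, NKX2-9, NRARP, RSPO4, SOX1 and UNCX had no row and were not analysed here. Intervals were checked on simulated data that held counting error only, so the check does not cover spread between barcodes. Calculations used Python 3.11.15, numpy 2.4.6, scipy 1.17.1 and pandas 2.3.3, and figures matplotlib 3.10.9.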

Additional observations from a re-analysis of the deposited data

How the results depend on the processing

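All values come from 1 library of 2 unseparated embryos, without a replicate, so they carry counting error only. Shares depend on depth: with thinning to 3500 UMIs they were 7.36% for NKX2-2, 20.7% for NKX2-8, 10.5% for FOXA2 and 36.2% for PTCH1 in ventral barcodes. No paired analysis was possible because each stage has 1 library.

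Asking for 2 UMIs of OLIG2 and NKX6-1, applying the rule after thinning, and leaving out the highest Scrublet scores gave 457, 420 and 597 ventral barcodes at E24. The single barcode at E28 was lost (0 left) under each of these, and that at E31 (0 left) under the first. Applied after thinning, the rules left 64 dorsal barcodes in place of 221, with 7454 genes measured in place of 9570. In the OLIG2 contrast 6902 genes were measured in place of 8643. With the rule applied after thinning, 127 genes were lower than in dorsal barcodes (191 as reported) and 19 higher in OLIG2 barcodes (31 as reported). There COL1A1, IGFBP3 and LUM turned to log2 ratios of -0.56, -0.24 and -1.03 and ZIC5 to 0.072, and NEUROG1 over dorsal barcodes was 0.20, against 2.11 as reported.

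Barcodes with 3 or more markers of the somite, the mesenchyme, the gut endoderm or the surface ectoderm list were left out (7276, of which 135 ventral and 61 dorsal). This gave 320 higher and 1146 lower genes against all other barcodes (586 and 2109 as reported). In OLIG2 barcodes 71 genes were lower (109 as reported), with fewer barcodes and genes entering. OLIG2 barcodes went from 376 to 330 and NKX6-1-only barcodes from 290 to 201. The gut endoderm list holds FOXA1 and FOXA2, which were lower in OLIG2 barcodes, so the filter acts partly on genes of that contrast. Against all other barcodes AHSG, APOA2, APOC3, CHRD, FGB, FGG, PCDH9, SCUBE2, SMAD7 and TBX20 turned to log2 ratios of 0.11, 0.19, 0.67, 0.11, 0.094, 1.35, 0.54, -0.31, 0.24 and 0.11, and IGFBP3 in OLIG2 barcodes to -0.019. LUM in OLIG2 barcodes was -0.23 without the highest Scrublet scores. FGG over dorsal barcodes was 1.94 with 2 SOX2 UMIs, 0.85 without the highest Scrublet scores and 1.74 without barcodes of other types. The cause of these turns was not tested; FGG has 98.5% of its dorsal UMIs in 1 barcode.

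Without a minimum of UMIs, which adds genes of few counts, 1680 genes were higher and 2150 lower than in dorsal barcodes, 3865 higher than in all others, and 1580 higher and 2349 lower in OLIG2 barcodes. With 200 UMIs, which leaves fewer genes, the counts were 87 and 48, 343 higher and 1315 lower, and 11 and 19. Adding 5 UMIs in place of 0.5 gave 1089 higher and 943 lower genes against all other barcodes and a median over all genes of 0.10 in place of -0.04. GDF7, MNX1, PLXNA4 and WNT4 turned to 0.15, 0.37, 0.29 and 0.080.

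Alternatives chosen after seeing the data left out barcodes with over 100 globin UMIs, or for each gene the barcode with most of its UMIs in each set. Under the second, FGG over dorsal barcodes turned to 0.58 and RBP4 was -0.44 (-4.43 as reported); in OLIG2 barcodes HBZ and HBE1 were 0.33 and 0.26 and LUM 0.84 (3.24, 2.85 and 1.17 as reported). Of 12457 values of single genes under the alternatives, 11497 stayed within their counting interval and 24 turned. Both 12457 and 11497 include the alternatives that change only the minimum of UMIs. Such alternatives cannot move the ratio of a gene, so each left all 871 gene ratios within the interval by construction. The totals thus overstate how stable the ratios were. Under some alternative 487 of 871 gene ratios left the interval. Without barcodes of other types, 209 of 361 ratios against all other barcodes left it without turning.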

Other observations

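LOC107128895, a protein-coding gene by the RefSeq table of assembly T2T-MFA8v1.1, where it lies 2 genes before SOX2, was outside the rule on symbols and is named because of its values. It stood at 69.1 CPM in ventral barcodes, 5.01 CPM in dorsal barcodes and 2.22 CPM in all other E24 barcodes, and had a UMI in 278 of the 666 ventral barcodes. The dorsal barcodes also carry SOX2.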
